A study of Mus musculus with 16 samples.

Results

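Adhesion genes of epithelial and mesenchymal cells were read in mouse embryonic stem (ES) cells grown on stroma and in the stroma alone, namely the cadherins CDH1, CDH2, CDH3 and CDH11 and the claudins CLDN3, CLDN4, CLDN5, CLDN6 and CLDN7. The members were every probe of the deposited array table whose target name equalled one of these symbols. They numbered 9 of 30854 target names and 16 of 45281 probes. A probe was retained if all arrays of at least 1 group had read it with a detection p under 0.05, which left 13 of the 16 probes and 20880 probes in all. The probe of largest mean then stood for each gene, so that all 9 genes stood among the 14829 tested.

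The ES cells, a line carrying a τ-EGFP knock-in, had been plated on PA6 cells, which are bone marrow stromal cells of the mouse, and total RNA was taken at day 7 of serum-free culture. ES/PA6 co-cultures without growth factors (-GFs) gave 2 arrays, those with recombinant FGF2 at 20 ng/ml gave 3 and those with recombinant BMP4 at 10 ng/ml gave 2. PA6 mono-cultures gave 3 arrays of each of the same 3 kinds, and the labels give 3 days of factor. The sources differ on both points: the methods give a lower BMP4 dose than the labels, and another label field has the factor present over the 7 days of culture. All RNA came from whole wells, so that a co-culture holds ES-derived and PA6 cells together, and fewer cells of a type and less RNA per cell cannot be told apart. PA6 is 1 cell line, and whether the replicates came from separate thaws is not given in the sources used here.

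Illumina MouseWG-6 v2.0 BeadChips were used, and values are log2 intensities after background correction and quantile normalization. Detected probes made up 37.3% to 47.0% of an array, and arrays of 1 group correlated at 0.973 to 0.986 across genes. The PA6 mono-cultures did not detect NES, MAP2 or DCX, neural genes, on any array, and the 7 stroma markers summed to a log2 level of 16.48 to 17.14 there against 15.60 to 15.93 in co-cultures. Pluripotency genes were not wholly absent from PA6 mono-cultures. POU5F1 was detected on 2 of 3 arrays without factor and on 1 of 3 with each factor. NANOG, SOX2 and ZFP42 were each detected on some PA6 arrays too, and UTF1 on none. Changes below come from limma, with p-values adjusted by the Benjamini-Hochberg method over all genes tested. A gene was called at an adjusted p under 0.1 and a log2 change over 1 in size, and the error of a change is the standard error (SE) of the fit.

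Cadherins join neighbouring cells through calcium-dependent contacts between their outer domains, and their tails bind catenins, which link the adherens junction to actin. Claudins span the membrane of the tight junction and set which ions pass between cells. CDH1 (E-cadherin) is the cadherin of epithelia and of ES cells, CDH3 (P-cadherin) that of placenta and basal epidermal layers, CDH2 (N-cadherin) that of neural and mesenchymal cells and CDH11 (OB-cadherin) that of osteoblasts and other stromal cells. CLDN3, CLDN4, CLDN6 and CLDN7 are claudins of epithelia, CLDN6 being known for early epithelial and pluripotent cells, and CLDN5 is the claudin of endothelium. Transcriptional repressors of the SNAIL and ZEB families are known to bind E-box elements in the CDH1 promoter and to lower its expression.

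CLDN4 and CLDN6 were detected in co-cultures alone. CDH1 was far brighter in co-cultures, though some PA6 arrays detected it. CDH11 was read mainly in PA6 mono-cultures, and CDH2 and CLDN7 at low levels in both. CDH1, CDH3, CLDN3, CLDN4, CLDN5 and CLDN6 were detected on every array of a group in co-cultures alone. A gene that enters a test through its high groups is more likely to differ between cultures, so counts against PA6 describe these members and carry no support beyond that. Levels of different probes cannot be set against each other on these arrays, and levels are therefore compared within a gene.

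**Figure D1:**
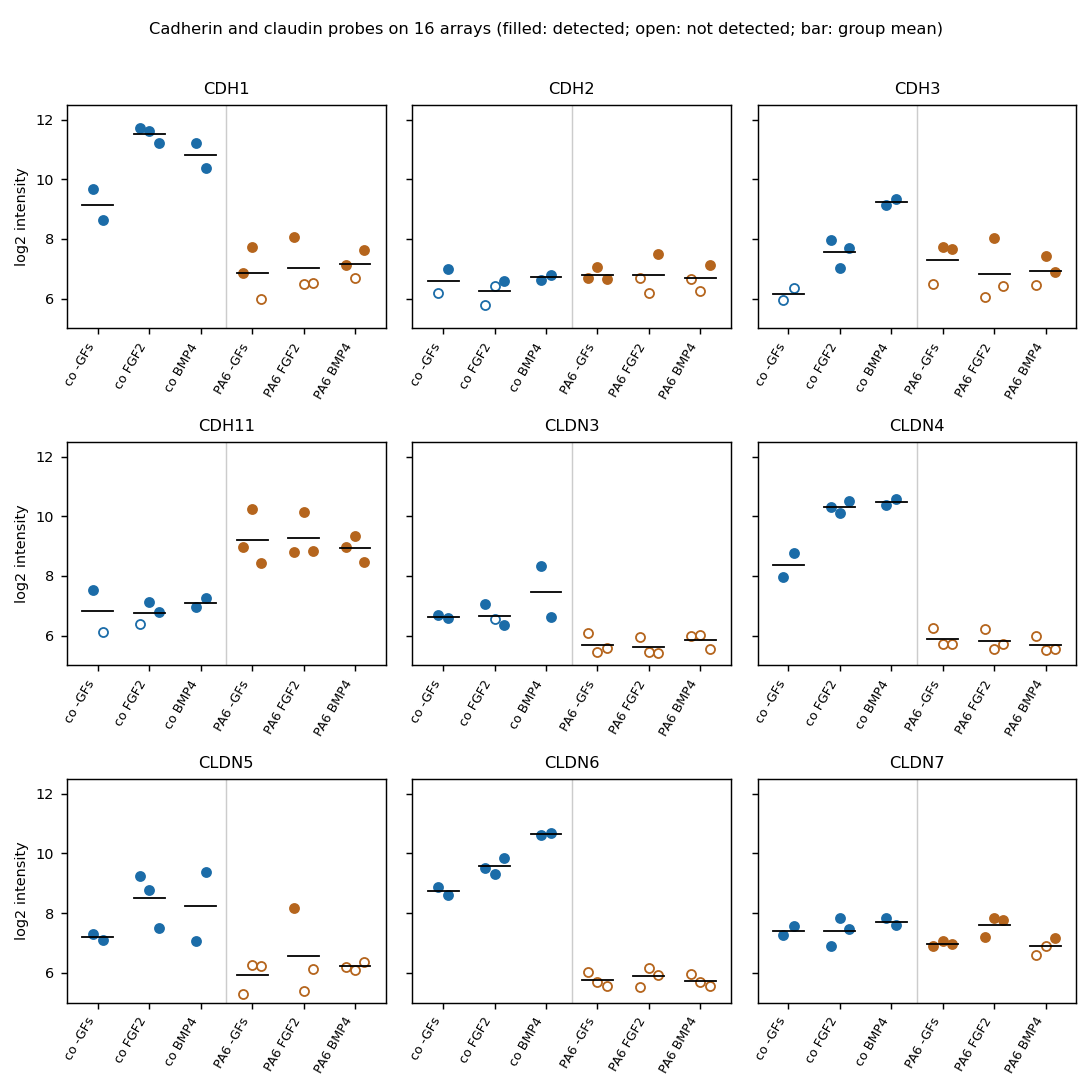
Log2 intensity of the representative probe of each member (vertical axis) on every array of the 6 groups (horizontal axis), with co-cultures in blue and PA6 mono-cultures in brown. Filled points were detected at a detection p under 0.05, open points were not, and bars are group means. CDH1 lay between 8.63 and 11.71 in co-cultures and CDH11 between 8.42 and 10.23 in PA6 mono-cultures.

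CDH1 rose with FGF2 in co-cultures. Its values were 9.66 and 8.63 on the -GFs arrays, 11.71, 11.63 and 11.21 with FGF2, and 11.20 and 10.39 with BMP4. All FGF2 arrays and both BMP4 arrays lay above both -GFs arrays. The FGF2 change was 2.37 (SE 0.37, n = 3 against 2, limma adjusted p = 0.0169), a 5.17-fold difference. With BMP4 the change was 1.65 (SE 0.41, n = 2 against 2) with a limma adjusted p of 0.107, which missed the threshold. It passed under 5 of the 10 other settings tried, with adjusted p-values of 0.0078 to 0.0947 there. BMP4 against FGF2 gave -0.72 (SE 0.37, limma adjusted p = 0.454, 95% interval -1.60 to 0.16), so that an order of both factors for CDH1 was not resolved.

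In PA6 mono-cultures CDH1 was dim. Its values were 6.87, 7.72 and 6.00 without factor, 8.06, 6.49 and 6.51 with FGF2, and 7.14, 6.69 and 7.62 with BMP4, of which 4 of 9 were not detected. The 3 PA6 groups overlapped, and each lay below every co-culture array. A second CDH1 probe was much dimmer, was detected on all 3 FGF2 co-culture arrays and on no other co-culture array, and was not called in any of the comparisons (FGF2 change 0.78, limma adjusted p = 0.217 over all probes). Its BMP4 change in co-cultures was -0.20 (limma adjusted p = 0.889 over all probes).

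The probe that stood for CDH3 was below detection in -GFs co-cultures and bright with BMP4. The representative probe read 5.97 and 6.36 without factor, both not detected, 7.96, 7.03 and 7.68 with FGF2, and 9.15 and 9.35 with BMP4. The 3 groups did not overlap and stood in the order -GFs, FGF2, BMP4. On this probe CDH3 was at least 2.03-fold higher with FGF2 (group means 7.56 and 6.16, limma adjusted p = 0.0404) and at least 6.56-fold higher with BMP4 (9.25 and 6.16, limma adjusted p = 0.0103). The bounds were set by the detection level of the -GFs arrays. The FGF2 call was lost without either -GFs array in turn, which leaves 1 array in that group. Over all fits with 1 array left out the FGF2 change was 1.19 to 1.66. The call was also lost without background correction, where the change was 0.76, and with all 16 arrays in one fit (limma adjusted p = 0.106).

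The other probes of CDH3 did not show this pattern. ILMN_2444594 read 8.96 and 6.35 on the -GFs arrays, 5.74, 6.01 and 5.81 with FGF2, and 6.99 and 6.79 with BMP4. ILMN_1222853 read 8.53 and 5.97 without factor, 7.33, 6.59 and 6.16 with FGF2, and 7.16 and 8.16 with BMP4. Both were highest on -GFs replicate 1, the array on which the representative probe was lowest. Neither was called for either factor, with changes of -1.80 and -0.56 for FGF2 and of -0.77 and 0.40 for BMP4, where 6.67% and 3.09% of the 20880 probes were called. The last CDH3 probe was detected on that 1 array alone. The CDH3 values below therefore stand for ILMN_3156246 and not for the gene as a whole.

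In PA6 mono-cultures the representative CDH3 probe varied from 6.04 to 8.01 in no order of treatment. It read 6.49, 7.74 and 7.67 without factor, 6.04, 8.01 and 6.41 with FGF2, and 6.46, 7.42 and 6.90 with BMP4. These arrays overlapped the FGF2 co-cultures and lay below the BMP4 co-cultures.

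**Figure D2:**
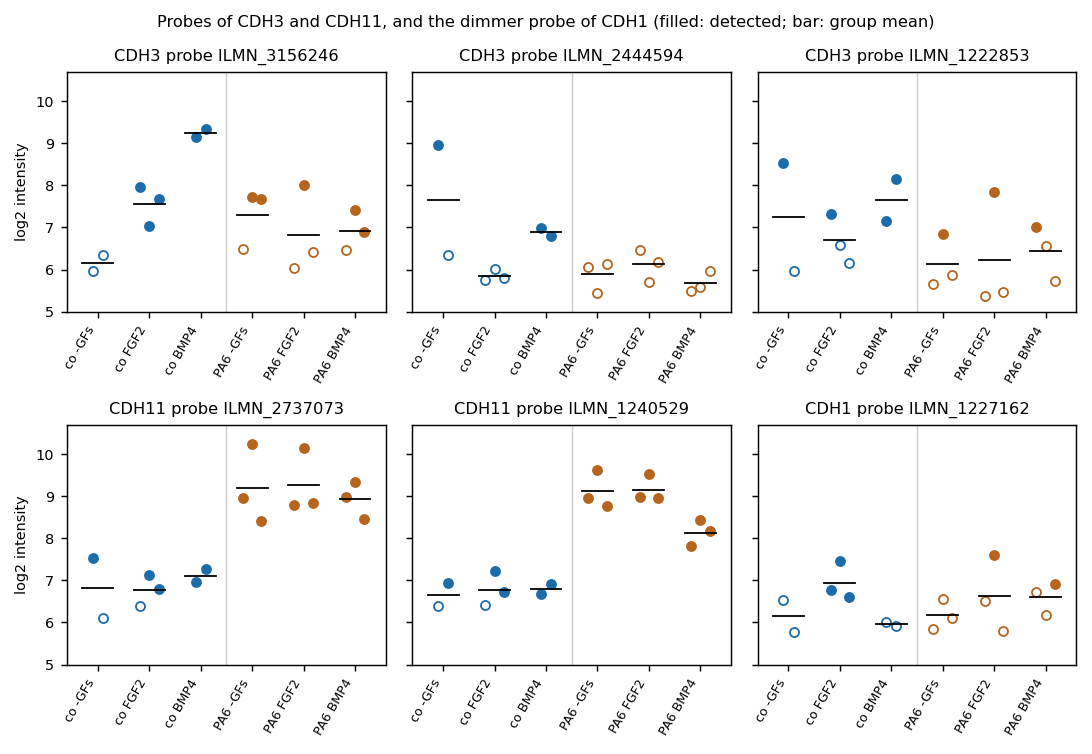
Log2 intensity (vertical axis) of the 3 retained CDH3 probes, the 2 retained CDH11 probes and the dimmer CDH1 probe on the arrays of the 6 groups (horizontal axis). Filled points were detected, open points were not, and bars are group means. Only the first CDH3 probe rises from -GFs to FGF2 to BMP4, while both CDH11 probes are higher on all 9 PA6 arrays than on any co-culture array.

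CDH11 was brighter in PA6 mono-cultures than in co-cultures. It read 8.97, 10.23 and 8.42 in PA6 mono-cultures without factor, 8.80, 10.15 and 8.83 with FGF2, and 8.98, 9.33 and 8.47 with BMP4. In co-cultures it read 7.53 and 6.11 without factor, 6.40, 7.13 and 6.80 with FGF2, and 6.96 and 7.26 with BMP4. Every PA6 array lay above every co-culture array, and on this probe the groups within a kind of culture overlapped. A second probe gave the same separation, from 7.81 to 9.64 in PA6 and from 6.39 to 7.22 in co-cultures. On it the PA6 arrays with BMP4 (7.81, 8.43 and 8.17) all lay below those without factor (8.95, 9.64 and 8.76), a change of -0.98 (SE 0.27, limma adjusted p = 0.481 over all probes) that was not called. The last CDH11 probe was detected nowhere.

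CDH2 gave little signal. Its representative probe read 6.20 and 6.99 in -GFs co-cultures, 5.79, 6.41 and 6.58 with FGF2, and 6.63 and 6.79 with BMP4, and it ranged from 6.18 to 7.50 over the PA6 arrays. Only the BMP4 co-cultures and the PA6 mono-cultures without factor detected it on every array. All 6 group means lay within 6.26 to 6.80, each overlapping the next, and its second probe was detected on no array. A dim probe limits this reading, and no level of CDH2 can be set from it.

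CLDN4 and CLDN6 were the claudins with the clearest pattern. CLDN4 read 7.98 and 8.78 in -GFs co-cultures, 10.32, 10.10 and 10.51 with FGF2, and 10.38 and 10.57 with BMP4. Both factors lifted it clear of both -GFs arrays, and the FGF2 and BMP4 arrays overlapped each other. The change was 1.93 with FGF2 (SE 0.27, n = 3 against 2, limma adjusted p = 0.0111) and 2.10 with BMP4 (SE 0.29, n = 2 against 2, limma adjusted p = 0.0228). BMP4 against FGF2 gave 0.17 (SE 0.27, limma adjusted p = 0.843, 95% interval -0.46 to 0.80).

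CLDN6 read 8.89 and 8.60 in -GFs co-cultures, 9.52, 9.31 and 9.86 with FGF2, and 10.61 and 10.67 with BMP4. The 3 groups did not overlap and stood in the order -GFs, FGF2, BMP4. With BMP4 it rose by a log2 change of 1.90 (SE 0.23, n = 2 against 2, limma adjusted p = 0.0156). With FGF2 the change was 0.82 (SE 0.21, n = 3 against 2, limma adjusted p = 0.0738), below the limit on size. No PA6 array detected CLDN4 or CLDN6, and the ranges there were 5.51 to 6.24 and 5.53 to 6.16.

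CLDN5 varied too much between arrays to be called for either factor. It read 7.31 and 7.09 without factor, 9.24, 8.76 and 7.51 with FGF2, and 7.07 and 9.39 with BMP4. All FGF2 arrays lay above both -GFs arrays, whereas BMP4 gave 1 array below and 1 far above them. The changes were 1.31 with FGF2 (SE 0.73, limma adjusted p = 0.341) and 1.03 with BMP4 (SE 0.79, limma adjusted p = 0.649). Without BMP4 replicate 2 the BMP4 change was -0.13, so that this single array set its sign. In PA6 mono-cultures CLDN5 was detected on 1 of 9 arrays, FGF2 replicate 1, at 8.17 beside 5.39 and 6.14 on the other FGF2 arrays (FGF2 change in PA6 0.65, limma adjusted p = 0.727).

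CLDN3 was dim in co-cultures except on BMP4 replicate 1. It read 6.68 and 6.59 without factor, 7.06, 6.56 and 6.36 with FGF2, and 8.32 and 6.61 with BMP4. The BMP4 change of 0.83 (SE 0.52, limma adjusted p = 0.543) rested on replicate 1, without which it was -0.021. No PA6 array detected CLDN3. CLDN7 read 7.27 and 7.55 without factor, 6.90, 7.85 and 7.45 with FGF2, and 7.83 and 7.59 with BMP4, and was the only claudin present on PA6 arrays of all 3 kinds, at 6.59 to 7.84 there. In co-cultures its FGF2 arrays overlapped both other groups, and BMP4 and -GFs lay side by side, and none of the comparisons called it. In PA6 mono-cultures all 3 FGF2 arrays (7.19, 7.84 and 7.78) lay above the arrays without factor (6.88, 7.07 and 6.95), a change of 0.64 (SE 0.21) with a limma adjusted p of 0.357.

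Of the 9 members, 3 rose and none fell with FGF2 in co-cultures (CDH1, CDH3 and CLDN4), where 7.42% of all genes tested were called (5.07% higher and 2.35% lower). The median change of the members was 0.82 beside -0.057 over all genes. With BMP4 3 rose and none fell (CDH3, CLDN4 and CLDN6), where 3.75% of all genes were called (2.28% higher and 1.47% lower), with medians of 1.03 and -0.0015. Both comparisons use the same -GFs arrays. Without BMP4 replicate 1 the CLDN4 and CLDN6 calls with BMP4 were lost, which left CDH3. That fit leaves 1 BMP4 array, so its spread comes from the other groups alone. The array kept read higher than replicate 1, at 10.57 beside 10.38 for CLDN4 and 10.67 beside 10.61 for CLDN6. Over all fits with 1 array left out the lowest BMP4 change was 1.70 for CLDN4 and 1.75 for CLDN6. BMP4 against FGF2 gave 2 members higher, CDH3 at 1.69 (SE 0.30, limma adjusted p = 0.079) and CLDN6 at 1.08 (SE 0.21, limma adjusted p = 0.0967), where 1.44% of all genes were called (0.755% higher and 0.688% lower). Neither call was firm when 1 of the 7 arrays was left out. CLDN6 was then never called, its change being 0.95 to 1.23. CDH3 was called only if the array left out was a -GFs one, its change being 1.43 to 1.89 over the 7.

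In PA6 mono-cultures limma called no member with FGF2, where 0.027% of all genes were called, and none with BMP4, where 0% were. At an unadjusted p under 0.05, 1 member (CLDN7) passed with FGF2 beside 1536 of all genes, and 0 passed with BMP4 beside 1334. The fitted difference of FGF2 effects, co-cultures less PA6, was 2.00 for CLDN4 (SE 0.36, limma adjusted p = 0.00551). It was 2.21 for CDH1 (SE 0.73, limma adjusted p = 0.0922). For this difference 7.9% of all genes were called (4.92% higher and 2.98% lower). The CDH1 call was lost without any 1 of 9 arrays in turn (highest limma adjusted p 0.293). For BMP4 the difference of effects was 3.46 for CDH3 (SE 0.74, limma adjusted p = 0.0242), 2.31 for CLDN4 (SE 0.38, limma adjusted p = 0.00499) and 1.93 for CLDN6 (SE 0.32, limma adjusted p = 0.00456), where 4.23% of all genes were called (2.61% higher and 1.63% lower). CLDN4 and CLDN6 were below detection on all PA6 arrays, so that their PA6 part of the difference is set by background readings. A factor effect on CLDN4 and CLDN6 in PA6 cells was therefore not measured. The CDH3 probe was below detection on both -GFs co-culture arrays, and its difference of effects rests on background readings in that group. These differences are fitted values and no bounds.

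**Figure D3:**
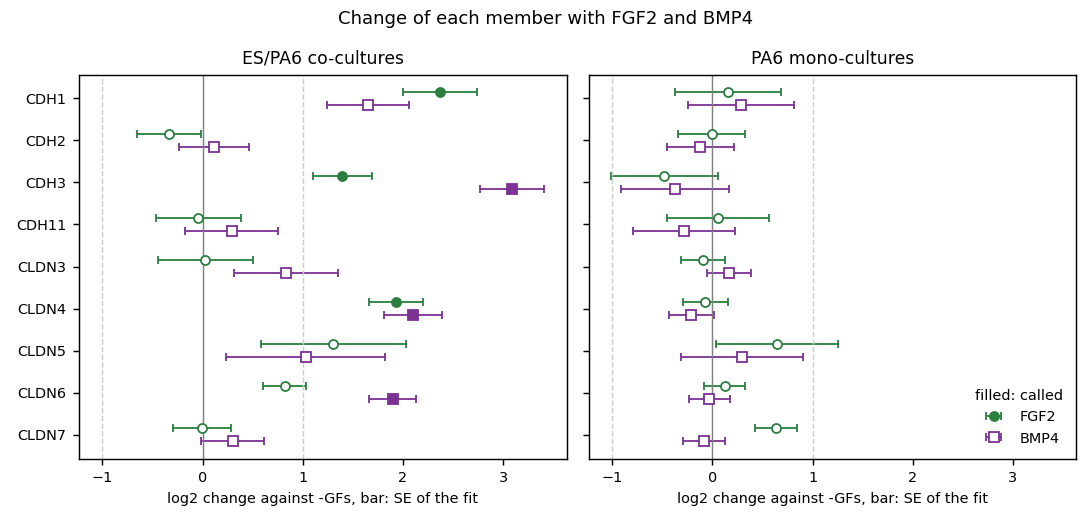
Log2 change of each member (vertical axis) with FGF2 (green circles) and BMP4 (purple squares) against -GFs (horizontal axis), in ES/PA6 co-cultures on the left and in PA6 mono-cultures on the right. Bars are the SE of the fit, filled symbols were called, and dashed lines mark the limit on size. Called members appear in co-cultures only, at 1.40 to 3.09, and the CDH3 changes start from a group in which the probe was not detected.

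Set against PA6 mono-cultures under the same treatment, co-cultures had more CDH1, CLDN4 and CLDN6 and less CDH11. CDH1 was higher by 2.28 without factor (SE 0.54), by 4.50 with FGF2 (SE 0.49) and by 3.65 with BMP4 (SE 0.54), the limma adjusted p-values being 0.00235, 2.17e-06 and 6e-05. The dimmer CDH1 probe did not share this, at -0.0075, 0.31 and -0.64, none of them called. CLDN4 was at least 3.23-fold, 11.4-fold and 12.4-fold higher without factor, with FGF2 and with BMP4, and CLDN6 at least 4.15-fold, 6.77-fold and 13.9-fold higher (highest of these limma adjusted p-values 2.91e-06). CDH11 was lower by log2 changes of -2.39, -2.49 and -1.82 (SE 0.55, 0.49 and 0.55), with limma adjusted p-values of 0.00182, 0.000501 and 0.0109. The second CDH11 probe gave -2.46, -2.38 and -1.33, all called, where 44.4%, 46.3% and 42.2% of the 20880 probes were.

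The remaining members were less firm against PA6. CLDN3 was called with FGF2 (fitted change 1.06, limma adjusted p = 0.0161, with no bound over 1 since PA6 did not detect it) and with BMP4 (at least 1.53-fold higher, limma adjusted p = 0.00293), and CLDN5 with FGF2 (1.94, limma adjusted p = 0.0219) and BMP4 (at least 2.60-fold higher, limma adjusted p = 0.0342). The fitted BMP4 difference of CLDN3 fell from 1.60 to 0.75 without co-culture replicate 1, and that of CLDN5 from 2.02 to 0.85 without co-culture replicate 2, and both calls ended. Single arrays also ended both FGF2 calls, for CLDN3 co-culture FGF2 replicate 1 and PA6 FGF2 replicates 2 and 3, and for CLDN5 PA6 FGF2 replicate 2. CDH3 was called in opposite directions, at least 1.70-fold lower in co-cultures without factor (limma adjusted p = 0.0745) and higher by 2.32 with BMP4 (SE 0.53, limma adjusted p = 0.00172). The first of these was lost without either -GFs co-culture array or PA6 -GFs replicate 2 or 3 and under 4 of 9 other settings, and the probe ILMN_2444594 was called the other way there, at least 1.95-fold higher (limma adjusted p = 0.00909 over all probes). In all, 3 members were higher and 2 lower without factor, where 44.1% of all genes were called (22.3% higher and 21.8% lower). With FGF2 5 were higher and 1 lower, where 46.4% were called (23.4% higher and 22.9% lower). With BMP4 6 were higher and 1 lower, where 42.4% were called (22% higher and 20.3% lower).

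Promoters of the claudins are shown because CLDN4 and CLDN6, which were called with BMP4, can be set beside CLDN3, the uncalled neighbour of CLDN4. Entries of the RefSeq promoter table of build GRCm38.p6 matched 5 of the 9 members, namely CLDN3, CLDN4, CLDN5, CLDN6 and CLDN7. The Cldn4 and Cldn3 genes are next to each other, and so are Cdh3 and Cdh1, while Cldn6 lies beside Cldn9. The 250 bases before the annotated start are given 5′ to 3′ on the gene's strand, for CLDN4 at chr5:134946935-134947184 (minus), CLDN6 at chr17:23679115-23679364 (plus) and CLDN3 at chr5:134985964-134986213 (plus). Capitals mark the E-box CACCTG or CAGGTG and the GC box GGGCGG or CCGCCC.
CLDN4: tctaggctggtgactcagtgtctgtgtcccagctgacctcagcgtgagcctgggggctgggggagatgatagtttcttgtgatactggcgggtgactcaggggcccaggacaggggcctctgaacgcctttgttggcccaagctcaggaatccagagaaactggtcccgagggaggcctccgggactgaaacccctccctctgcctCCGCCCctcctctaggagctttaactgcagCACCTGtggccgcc
CLDN6: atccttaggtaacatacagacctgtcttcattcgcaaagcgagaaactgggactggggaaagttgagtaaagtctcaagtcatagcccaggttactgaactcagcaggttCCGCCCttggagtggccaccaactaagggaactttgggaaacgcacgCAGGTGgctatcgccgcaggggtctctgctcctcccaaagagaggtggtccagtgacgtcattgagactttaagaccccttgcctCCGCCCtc
CLDN3: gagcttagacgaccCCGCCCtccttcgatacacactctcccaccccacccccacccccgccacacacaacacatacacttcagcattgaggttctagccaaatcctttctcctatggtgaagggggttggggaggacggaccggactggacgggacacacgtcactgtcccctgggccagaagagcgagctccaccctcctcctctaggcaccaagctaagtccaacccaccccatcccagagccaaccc

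CLDN4 held 1 E-box, 14 to 9 bases before the start, and CLDN6 held 1, 93 to 88 bases before it, while the CLDN3 and CLDN5 windows held none. Of the 2 CLDN7 entries, 1 held 2 E-boxes and the other none. An E-box on either strand was present in 17.2% of all 32851 promoters over the same window. A GC box was present in CLDN3, CLDN4, CLDN5, CLDN6 and 1 of the 2 CLDN7 entries, beside 32.7% of all promoters. The AP-2 pattern GCCNNNGGC was in none of them (13.7% of all promoters), and the grainyhead pattern AACNNGTT was in CLDN5 alone (3.64% of all promoters). No matched motifs overlapped each other. These are letter matches in 1 window, and the arrays measured no binding there.

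Known repressors of CDH1 averaged higher in PA6 mono-cultures and moved in different directions with the factors in co-cultures. Whole-well RNA does not give their level in the cells that held CDH1, and their part in its change was not tested. SNAI1, which encodes SNAIL, averaged 8.78 ± 0.15 in -GFs co-cultures (SD, n = 2), 9.14 ± 0.33 with FGF2 (SD, n = 3) and 9.74 ± 0.10 with BMP4 (SD, n = 2), beside 11.81 to 12.03 in the PA6 groups. SNAI2, which encodes SLUG, rose with BMP4 by 2.16 (SE 0.19, limma adjusted p = 0.00653), from 8.46 to 10.63, and stood at 12.36 to 12.98 in PA6. Its rise accompanied those of CDH3, CLDN4 and CLDN6 on the same arrays. TWIST1 rose by 1.13 with BMP4 (SE 0.23, limma adjusted p = 0.061). ZEB2 fell with FGF2 by 1.16 on the log2 scale (SE 0.27, limma adjusted p = 0.0498), and averaged 9.95 with BMP4 beside 10.73 without factor. ZEB1 changed by -0.42 with FGF2 and -0.44 with BMP4 (limma adjusted p = 0.249 and 0.395).

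Of 10 genes of transcription factors of the epithelial to mesenchymal transition, none rose and 1 fell with FGF2 in co-cultures. With BMP4 3 rose and none fell, the third being FOXC2 (at least 1.82-fold, limma adjusted p = 0.083). Of all genes, 2.35% were called lower with FGF2 and 2.28% higher with BMP4. The medians of the 10 were 0.14 and 0.87, beside -0.057 and -0.0015 over all genes. Against PA6, none was higher in co-cultures, and 7, 9 and 6 were lower without factor, with FGF2 and with BMP4, where 21.8%, 22.9% and 20.3% of all genes were called lower. SNAI2 was lower in co-cultures by log2 changes of -4.51, -3.03 and -2.24 and SNAI1 by -3.07, -2.88 and -2.07. Of 19 mesenchymal genes, 16, 16 and 12 were lower and none was higher, beside the same shares of all genes. Within co-cultures none of the 19 was called for FGF2 or for BMP4, where 7.42% and 3.75% of all genes were. VIM, the intermediate filament vimentin, averaged 14.07 to 14.21 in the co-culture groups and 15.07 to 15.17 in the PA6 groups.

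**Figure D4:**
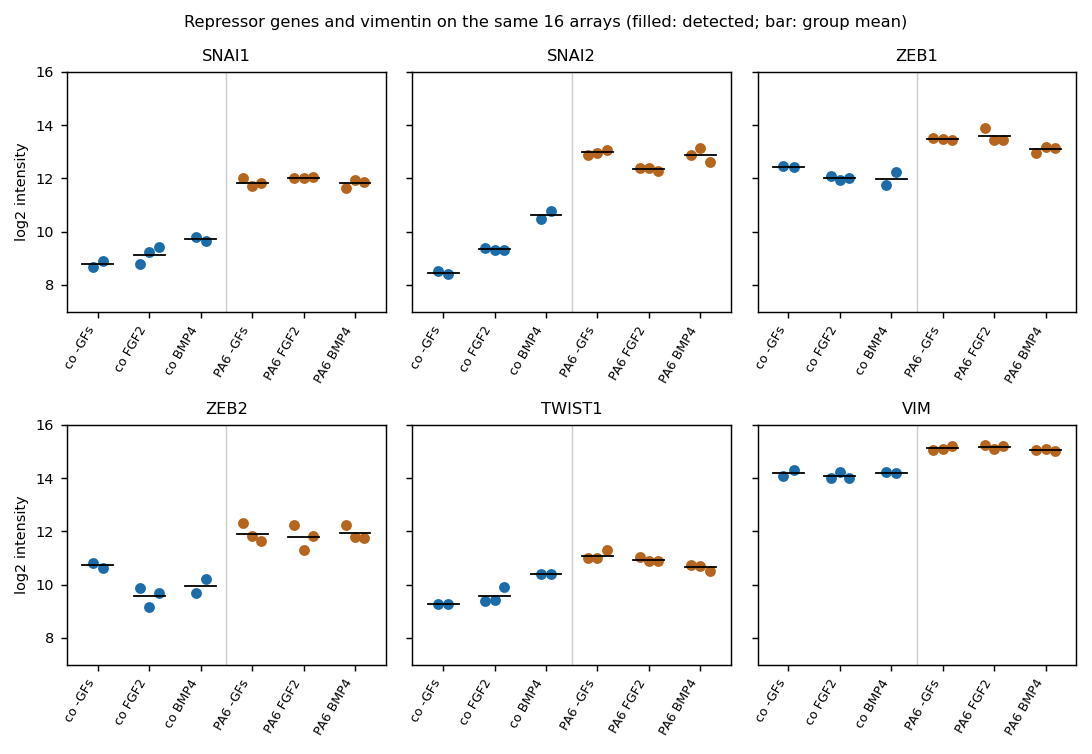
Log2 intensity (vertical axis) of 5 transcription factor genes known to repress CDH1 and of VIM on the arrays of the 6 groups (horizontal axis). All points were detected, and bars are group means. All 6 genes average lower in co-cultures than in PA6 mono-cultures, and SNAI2 climbs from 8.46 in -GFs co-cultures to 9.33 with FGF2 and 10.63 with BMP4.

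Partners of the cadherins in the adherens junction showed no called change with either factor. None of 13 tested genes of catenins and their partners was called in co-cultures, with medians of -0.074 for FGF2 and 0.053 for BMP4. Of all genes, 7.42% and 3.75% were called for FGF2 and BMP4, so a count of 0 in a list of 13 says little. CTNNB1 (β-catenin) changed by -0.074 and -0.018, CTNNA1 (α-catenin) by 0.40 and 0.27 and CTNND1 (p120-catenin) by 0.22 and 0.36. Among 17 tested genes of the tight junction, F11R alone was called, being at least 4.01-fold higher with FGF2 (limma adjusted p = 0.00451) and at least 2.95-fold higher with BMP4 (limma adjusted p = 0.0144). A count of 1 in a list of 17 lies near the shares over all genes. F11R encodes JAM-A, an immunoglobulin-like protein of the tight junction. OCLN, which encodes occludin, failed the detection filter in all groups and was not tested.

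Among 13 tested of 18 other epithelial genes, 6 rose with FGF2 and 4 with BMP4, and none fell, where 5.07% and 2.28% of all genes were called higher. The medians over the 13 were 1.20 and 1.42, beside -0.057 and -0.0015 over all genes. ELF3, an ETS factor of epithelia, rose by 3.19 with FGF2 (SE 0.47, limma adjusted p = 0.0135), and KLF5, a zinc finger factor of ES cells and epithelia, by 2.67 (SE 0.34, limma adjusted p = 0.00918). Against -GFs, BMP4 cultures had ESRP2, an epithelial splicing regulator, at least 4.12-fold higher (limma adjusted p = 0.00731). EPCAM, the usual surface marker of epithelia and ES cells, was not detected on any array under its older target name TACSTD1 and was not tested.

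Of 19 further cadherin genes, 5 were tested and limma called none with either factor in co-cultures, and it called none of 7 further claudin genes tested. With 7.42% and 3.75% of all genes called for FGF2 and BMP4, counts of 0 in lists of this size say little. CLDN9, the neighbour of CLDN6, changed by -0.30 and -0.17. CDH5, the cadherin of endothelium, was detected on 1 of 2 BMP4 co-culture arrays and on none of the other co-culture arrays, and was not tested. It was also detected on 1 of 3 PA6 arrays with FGF2 and 1 of 3 with BMP4. Its means there were 6.52 and 6.54, beside 6.55 in BMP4 co-cultures. PECAM1, another endothelial gene, rose by 3.24 with FGF2 (SE 0.42, limma adjusted p = 0.0098) and by 1.98 with BMP4 (SE 0.46, limma adjusted p = 0.088).

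Markers of several cell types moved with these members. All 5 pluripotency markers were tested, and their summed log2 level was 13.05 to 13.12 in -GFs co-cultures, 15.10 to 15.43 with FGF2 and 13.83 to 14.68 with BMP4. These sums add intensities before the log, so the brightest probe, NANOG here, weighs most. Both factor groups lay above the -GFs arrays in this sum, as they did for CDH1. POU5F1, NANOG, ZFP42 and UTF1 averaged higher with each factor than without. SOX2 went the other way with BMP4, averaging 10.14 beside 10.57 without factor and 11.02 with FGF2. All 5 surface ectoderm markers were tested, and their sum was 10.94 to 11.26, 10.37 to 10.93 and 13.66 to 14.53, highest with BMP4 as for CDH3 and CLDN6. Of these, KRT5, KRT14 and TRP63 were undetected on both -GFs arrays. Of 6 neural markers 3 were tested, NES, MAP2 and DCX, and their sum was 13.32 to 14.22 without factor, 13.37 to 13.55 with FGF2 and 12.74 to 12.92 with BMP4. NES fell with FGF2 by 1.29 on the log2 scale (SE 0.23, limma adjusted p = 0.0248), and DCX changed by -1.54 with BMP4 (SE 0.35, limma adjusted p = 0.0847), which was called. The 2 tested of 6 endothelial markers summed to 7.69 to 8.16, 10.74 to 11.54 and 9.56 to 10.31, both factor groups being above the -GFs arrays. Of 4 adipocyte markers 3 were tested, and their sum was 10.79 to 11.99, 11.17 to 11.69 and 11.52 to 14.05 in co-cultures. In PA6 mono-cultures it was 9.74 to 14.01 without factor, 7.81 to 10.87 with FGF2 and 13.42 to 16.78 with BMP4. No adipocyte marker was called for either factor against -GFs in either culture. The part of these cell types in the results was not tested.

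Some members followed each other over the arrays. Over the 16 arrays CLDN4 and CLDN6 correlated at a Pearson r of 0.975 and CDH1 and CLDN4 at 0.947, and CDH1 and CDH11 ran against each other at -0.788. These arrays share 2 kinds of culture, which alone can order them. Over the 7 co-culture arrays CDH3 and CLDN6 correlated at 0.964 and CLDN4 and CLDN6 at 0.781, while CDH1 and CDH11 gave 0.161. Of all genes tested, TNFRSF19, 9130213B05RIK and BMP7 were most like CLDN6 over the 16 arrays (r = 0.990, 0.987 and 0.986), and PRAMEF12, 1110008L16RIK and TEX19.2 most like CDH1 (r = 0.976, 0.976 and 0.973). For CDH11 these were LOC100045864, LST1 and H2-D1 (r = 0.962, 0.953 and 0.950). Over the 7 co-culture arrays SNAI2 stood among the 3 genes most like CDH3 (r = 0.970) and among the 3 most like CLDN6 (r = 0.973). The r values are given as descriptions over arrays that share their groups.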

How the data were processed

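The deposited table gave, per the file headers, an average bead intensity that the authors had not normalized and a detection p-value for each probe and array, made with GenomeStudio 2011.01 per the labels. It names no genome build. The cubic spline normalized values of the study were not used here. Here neqc of limma 3.58.1 in R 4.3.3 corrected the background by normexp, with its parameters taken from the detection p-values, added an offset of 16, normalized all arrays by quantiles and returned log2 values. Co-culture comparisons were fitted to 7 arrays, PA6 comparisons to 9, and comparisons of both cultures to all 16, with no block. Where a gene was undetected on all arrays of 1 group, the change is given as at least so many fold, from the detection level of those arrays, if that bound exceeds 1. Differences of effects are fitted values throughout. Of the target names, 71.4% matched a GRCm38.p6 gene table, with all 9 members among them. The array number limits the precision of every value, and the offset compresses changes of dim probes. The fits were tested on simulated data. The members and gene lists were chosen with earlier results of these data known. Named were all members and their probes, the largest called changes of each list, a few fixed genes and the 3 genes most like a member. Among the alternatives tried were another scaling, background correction, filters, thresholds, blocks and leaving out each array.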

Additional observations from a re-analysis of the deposited data

Results flagged for a closer look

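Limma's interaction term, the effect of a factor in co-cultures less that in PA6 mono-cultures, was called for 4 members. For FGF2 it was 2.21 for CDH1 and 2.00 for CLDN4 on the log2 scale, where 7.9% of all genes were called. For BMP4 it was 3.46 for CDH3, 2.31 for CLDN4 and 1.93 for CLDN6, where 4.23% of all genes were called. CLDN4 and CLDN6 were not detected on any PA6 array and the CDH3 probe on neither -GFs co-culture array, so these values rest in part on background readings and leave the factor effect in PA6 cells unmeasured for CLDN4 and CLDN6. All 4 members had passed the detection filter through co-cultures alone, so these calls describe the members and carry no support beyond that. Groups of 2 or 3 arrays were too small for a check of outlying arrays.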

How the results depend on the processing

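All the called member values kept their direction under every alternative that gave them a value. Calling BMP4 against FGF2 in co-cultures gave 2 members, but 1 without background correction or with every probe tested, and 0 without a filter on dim probes, at an adjusted p under 0.05 or with the replicate block. For the difference of FGF2 effects 2 members became 1 without a filter or at an adjusted p under 0.05. With 1 array left out, the count ranged from 2 to 3 for FGF2 and from 1 to 4 for BMP4 in co-cultures, from 0 to 1 for BMP4 against FGF2, and from 4 to 6, 5 to 6 and 6 to 7 for co-cultures against PA6 without factor, with FGF2 and with BMP4. For the differences of FGF2 and BMP4 effects it ranged from 1 to 2 and from 3 to 4, and it was 0 throughout for PA6. Leaving an array out also turned uncalled changes, which ranged for CDH2 with FGF2 from -0.73 to 0.059, for CLDN3 with BMP4 from -0.021 to 1.69, for CLDN5 with BMP4 from -0.13 to 2.19 and for CLDN5 with FGF2 in PA6 from -0.16 to 1.23. Without background correction CLDN3 lost its calls against PA6 (0.78 with FGF2, 0.97 with BMP4) and CDH3 its call without factor (-0.63), which also ended without a filter and at an adjusted p under 0.05. No member was detected on all 16 arrays, so that filter gave no value. Same-numbered arrays correlated at -0.199 to 0.283 in their deviations (co-cultures) and at 0.0697 to 0.199 (PA6), so by a limit of 0.1 on every pair, replicate numbers were not taken to pair the arrays. Other PA6 pairs lay at -0.136 to -0.012, all below the same-numbered ones, a hint from the data and not from the design. Arrays sharing a run of columns in the table correlated at 0.0976 to 0.283 in co-cultures. The replicate block also ended the FGF2 call of CDH3 (1.33, adjusted p = 0.132). With runs as a block, CDH3 without factor against PA6 was not called (-0.97, adjusted p = 0.104) and CDH1 with BMP4 was (1.72, adjusted p = 0.0526). Under median scaling the median of all genes moved to -0.21 for FGF2, 0.093 for BMP4, 0.24 for the difference of BMP4 effects and 0.29 for BMP4 against FGF2, where CLDN6 changed by 1.27, and no call of a member was lost. It moved the share of higher calls from 52.3% to 63.8% for BMP4 against FGF2, from 62.3% to 75.2% for the difference of FGF2 effects and from 61.6% to 77.4% for that of BMP4 effects. Over the alternatives other than left-out arrays, calls over all genes ran from 663 to 1271 for FGF2, from 258 to 870 for BMP4 and from 11 to 574 for BMP4 against FGF2. With every probe tested, 1393 of 20880 probes were called for FGF2. Leaving out any array gave fewer calls over all genes in each of these comparisons than all arrays did, so the shares given above depend on the arrays. Such a fit can leave 1 array in a group. The causes were not tested. The arrays' signal over background limits CDH2, CLDN3, CLDN7 and the dimmer probes most.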

Other observations

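Of 5 further cadherin genes tested, 2 had a lower BMP4 effect in co-cultures than in PA6 mono-cultures, and so had 2 of 13 catenins and partners, where 1.63% of all genes were called lower for this difference. They were CDH4, which encodes R-cadherin (-1.57, SE 0.35, limma adjusted p = 0.0295), CDH22 (-1.64, SE 0.42, limma adjusted p = 0.0524), CTNNA2, the αN-catenin gene (-1.48, SE 0.40, limma adjusted p = 0.0724), and CTNND2, the δ-catenin gene (-1.52, SE 0.40, limma adjusted p = 0.0583). PA6 mono-cultures without factor detected none of the 4, so the fitted differences rest in part on background readings. None was called for BMP4 within co-cultures, where CDH4 changed by -1.06 (limma adjusted p = 0.123), CTNNA2 by -1.58 (limma adjusted p = 0.12) and CTNND2 by -1.54 (limma adjusted p = 0.12). Without factor CDH4 was at least 11.4-fold and CTNNA2 at least 9.20-fold higher in co-cultures than in PA6 mono-cultures. CDH26 went the other way, lower in co-cultures without factor by a log2 change of -4.97 (SE 0.48, limma adjusted p = 9.89e-07).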
